A study of Mus musculus with 16 samples.

Results

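The genes described here are 42 components, regulators and receptors of the mouse complement and coagulation systems, out of 55421 genes listed in the deposited count tables. They are a named list, matched from Ensembl identifiers to symbols, whose rule uses no measured value, although the list and its classes were drawn up with earlier results of these data known. By the place of synthesis that textbooks give, 28 were classed as liver-made, 6 as macrophage-made (C1qa, C1qb, C1qc, Cfp, C3ar1 and C5ar1) and 8 as mixed (C1s1, C2, C3, C4b, Cfb, Serping1, F10 and Pros1).

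The libraries came from white adipose tissue (WAT) and liver of C57BL/6 mice fed a high-fat diet (HFD). Mice were GPR132fl/fl, called fl/fl below, or Lyz2_cre+/_GPR132fl/fl, called CKO, in which a Cre recombinase driven by the myeloid gene Lyz2 is meant to delete the floxed receptor gene. Both genotypes therefore carry the floxed allele, and no wild-type or Cre-only mice are among the groups. Each genotype was given vehicle or NOX_6_18, an antagonist of the receptor GPR132. This gives 4 groups per tissue with 2 libraries each, 16 in all. The study asks how the antagonist acts on GPR132 in macrophages. Age, sex and dose are not given in the labels, and they do not state whether the paired libraries of each group are different mice. The p-values therefore reflect only how these libraries vary, and that variation may be technical.

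The labels name macrophages of each tissue as the source of RNA, although they describe freezing the tissue itself. The WAT libraries held 48348395 to 58396991 counts and the liver libraries 45624957 to 60761705. In WAT mitochondrial genes took 2.31% and 2.73% of counts in the fl/fl vehicle libraries and 3.21% to 3.61% in the other 6, and 25039 and 25702 genes were detected against 30393 to 31289. These values move with the WAT comparisons against fl/fl vehicle, and their part in those results was not tested. In liver the mitochondrial share was 43.0% to 44.9% and 22051 to 23238 genes were detected, with overlap between the groups. Macrophage markers were abundant in both tissues, yet the libraries also held RNA of other cells: 8 fibroblast markers summed to 21658 to 22135 counts scaled to library size (CPM) in WAT of fl/fl mice on vehicle, and the hepatocyte gene Alb was 1933 and 2024 CPM in liver of that group. The targeted gene Gpr132 was at 69.7 and 72.5 CPM in fl/fl WAT on vehicle, 60.1 and 60.3 with NOX_6_18, 35.6 and 64.6 in CKO on vehicle and 56.5 and 59.1 in CKO with NOX_6_18, and in liver at 4.04 and 4.26, 1.64 and 2.13, 1.46 and 1.86, and 2.41 and 2.81. On vehicle the CKO libraries lay below fl/fl in both tissues, but on NOX_6_18 those labelled CKO lay above fl/fl in liver. The counts cover the whole gene and the labels do not give the deleted exons, so they do not check the deletion. In bulk RNA, fewer cells of a type and less RNA per cell cannot be told apart.

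Complement is a cascade of plasma proteins that tags and lyses targets. C1q with the proteases C1r and C1s starts the classical pathway and mannose-binding lectins with the MASP proteases start the lectin pathway, while factor B and properdin run the alternative pathway. All converge on C3, and the terminal proteins C5 to C9 build the membrane attack complex. Coagulation is a parallel cascade in which serine proteases end in thrombin, which turns fibrinogen into fibrin, and plasmin dissolves it. Hepatocytes make most of these proteins for plasma. Macrophages are the main source of C1q and properdin and carry the receptors of the fragments C3a and C5a, and C3, C4, C2 and factor B are made by both and by stromal cells.

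Stretches just upstream of genes on which the results turn are printed first, because several of these genes are neighbours that moved together. Fgg (chr3:83007724-83015049), Fga (chr3:83026076-83033627) and Fgb (chr3:83040141-83049863) encode the gamma, alpha and beta chains of fibrinogen and lie in 1 cluster. C8b (chr4:104766317-104804548) and C8a (chr4:104815679-104876398) are adjacent, as are C1qb (chr4:136880129-136886187), C1qc (chr4:136889804-136893065) and C1qa (chr4:136895917-136898803). Coordinates are from GRCm38, with gene extents from GENCODE M21 and sequences from RefSeq on GRCm38.p6. Each line runs 5′ to 3′ on the gene's own strand and ends upstream of the annotated gene; of the C1qc window, the 99 bases outside the GENCODE gene are shown. Capitals mark GTTAAT, the half-site of the hepatocyte factor HNF1, or GAGGAAG, a box bound by the myeloid factor PU.1, on either strand.
Fgb, minus strand, chr3:83049864-83050113: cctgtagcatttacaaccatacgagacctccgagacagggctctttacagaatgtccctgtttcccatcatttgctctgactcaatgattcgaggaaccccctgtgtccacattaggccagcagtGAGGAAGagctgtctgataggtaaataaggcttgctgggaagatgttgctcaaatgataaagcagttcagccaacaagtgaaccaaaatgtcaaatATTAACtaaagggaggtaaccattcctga
Fgg, plus strand, chr3:83007474-83007723: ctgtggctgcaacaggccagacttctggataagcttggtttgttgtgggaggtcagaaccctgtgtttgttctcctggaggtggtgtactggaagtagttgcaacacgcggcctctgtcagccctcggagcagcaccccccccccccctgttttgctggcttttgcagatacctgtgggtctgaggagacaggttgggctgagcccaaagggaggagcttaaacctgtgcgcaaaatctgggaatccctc
C8a, minus strand, chr4:104876399-104876648: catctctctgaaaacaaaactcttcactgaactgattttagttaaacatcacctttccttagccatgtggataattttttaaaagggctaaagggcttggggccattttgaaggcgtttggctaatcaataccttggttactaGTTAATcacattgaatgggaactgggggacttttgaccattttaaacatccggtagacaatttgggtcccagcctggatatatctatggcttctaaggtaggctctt
C8b, plus strand, chr4:104766067-104766316: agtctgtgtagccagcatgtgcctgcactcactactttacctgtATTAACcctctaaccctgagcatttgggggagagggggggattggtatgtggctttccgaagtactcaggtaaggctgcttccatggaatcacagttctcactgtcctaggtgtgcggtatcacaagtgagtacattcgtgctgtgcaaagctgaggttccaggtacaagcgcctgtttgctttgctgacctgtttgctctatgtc
C1qb, minus strand, chr4:136886201-136886450: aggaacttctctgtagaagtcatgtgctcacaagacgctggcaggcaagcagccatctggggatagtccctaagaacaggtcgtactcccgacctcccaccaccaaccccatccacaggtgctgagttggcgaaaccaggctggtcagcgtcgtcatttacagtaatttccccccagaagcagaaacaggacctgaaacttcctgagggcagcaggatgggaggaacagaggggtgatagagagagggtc
C1qc, minus strand, chr4:136893066-136893164: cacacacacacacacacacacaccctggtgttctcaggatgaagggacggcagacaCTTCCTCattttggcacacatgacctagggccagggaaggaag
Upstream windows of 250 bases were found for 32 of the 42 genes (34 windows). GTTAAT or its reverse complement ATTAAC was in 5 of 24 liver-made windows (those of Fga, Fgb, C8a, C8b and F13b), in that of Cfp among 5 macrophage-made windows, and in 6.43% of all 32851 windows in the table. GAGGAAG or CTTCCTC was in the windows of Fgb and C1qc and in 10.6% of all. CAAAGTCC, a site of the hepatocyte factor HNF4, was in none of the 34 windows, with 1.2% of all holding it. TATAAA was in those of Klkb1 and C3ar1, with 12.4% of all. A match describes letters, not a bound site, and the motifs do not overlap each other in these windows.

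The 2 tissues shared their highest genes but differed in the share of liver-made genes. Levels between genes are compared as CPM per kilobase of exon. In WAT of fl/fl mice on vehicle the highest were C1qb with 918 ± 89.5 (SD, n = 2), C1qa with 894 ± 67.3 and C3, the hub of the cascade, with 789 ± 81.0 CPM per kilobase. C1qa and C1qb do not differ beyond their spread there. The lowest of the macrophage-made genes, the C3a receptor C3ar1, still stood at 67.6 ± 3.66. Among liver-made genes only F7, the protease that tissue factor activates, stood above 10 CPM per kilobase, at 18.7 ± 1.03, and 8 genes (Mbl1, Mbl2, Masp2, C8b, F2, F11, F13b and Plg) had 0 counts in both libraries. Summed per kilobase, macrophage-made genes took 55.1% to 59.4% of the 42 genes' level over the WAT libraries, mixed genes 39.9% to 44.3% and liver-made genes 0.648% to 0.725%.

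Liver had the same 3 genes at the top, with C1qa at 208 ± 12.5, C1qb at 204 ± 0.65 and C3 at 150.3 ± 1.64 CPM per kilobase (SD, n = 2). Liver-made genes were present there over a wide range, from Fgg with 25.1 ± 0.248 and the lectin-pathway protease Masp1 with 20.97 ± 0.293 down to factor XI, F11, with 0.601 ± 0.126. They took 18.7% to 19.1% of the summed level in fl/fl on vehicle and 25.4% to 25.8% in the other 3 groups. In the same libraries macrophage-made genes took 45.8% to 51.3%, above liver-made genes throughout.

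**Figure D1:**
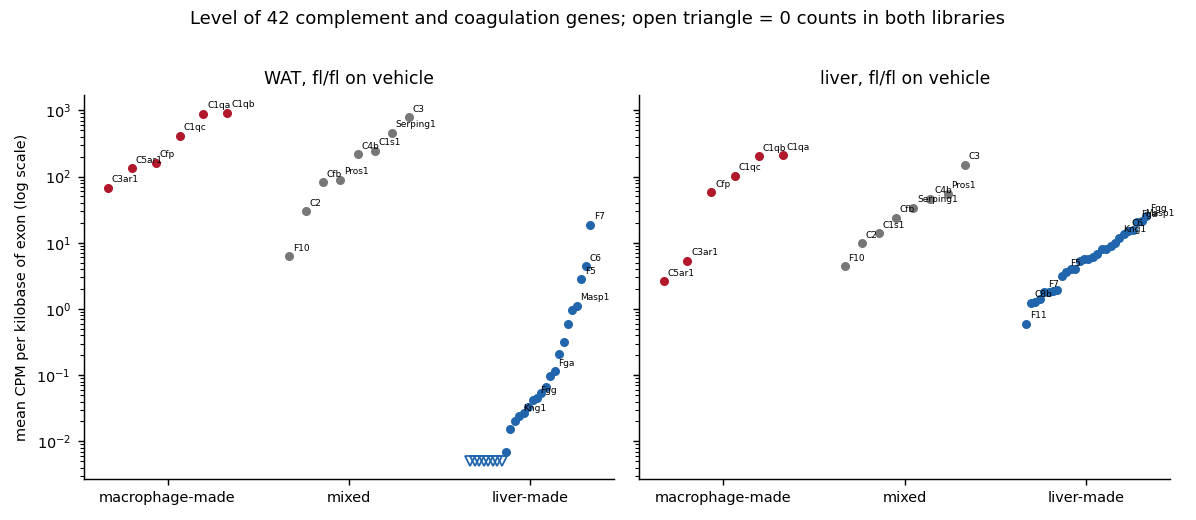
Mean level of each gene in fl/fl mice on vehicle (n = 2 libraries per tissue), as CPM per kilobase of exon on a log axis, by class; open triangles are the 8 genes with 0 counts in both WAT libraries. Macrophage-made and mixed genes sit high in both tissues, while liver-made genes fall over several orders of magnitude in WAT, with F7 the highest there.

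Between tissues, all 42 genes differed in fl/fl on vehicle by edgeR's quasi-likelihood test at an adjusted p under 0.05, 13 higher and 29 lower in WAT, where 38.2% of all genes fitted were called (21.6% higher, 16.5% lower). With library totals alone 15 of the 42 were higher and 27 lower, while over all genes the split went from 5788 higher and 4418 lower to 13551 and 1744. All 6 macrophage-made genes were higher in WAT, with a median log2 difference of 1.07, from 0.42 for properdin (Cfp) to 4.57 for the C5a receptor C5ar1. Of the mixed genes 6 were higher, led by C1s1, a C1 protease, at 3.06 ± 0.05 (SE), and 2 were lower, the protein C cofactor Pros1 at -0.38 ± 0.04 and factor X, F10, at -0.55 ± 0.09. These 2 signs depended on the scaling: with library totals alone they became 0.57 for Pros1 and 0.39 for F10, where the median of all genes moved by 0.94. Of the liver-made genes 27 of 28 were lower in WAT. Their median was -8.60, or -7.84 with the 8 genes without counts set at their bound (3 counts over the 2 libraries); fibrin's precursors stood at -8.57 to -10.47, and prothrombin (F2) and plasminogen (Plg) were at least 3067-fold and 3325-fold lower. F7 was the exception, 2.33 ± 0.13 higher in WAT (adjusted p = 2.15e-08).

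Alb and the hepatocyte markers are set beside these genes. Alb differed by -9.63 between WAT and liver in fl/fl on vehicle, and the median of 18 hepatocyte markers was -9.15. Single markers ranged from -10.15 for Apob to -0.06 for Trf. What part hepatocyte RNA has in these levels was not tested. With bounds in place, 6 of 28 liver-made genes lay below Alb. The liver-made genes closest to equal levels, besides F7, were factor V (F5, -1.45 ± 0.14), the terminal component C6 (-2.84 ± 0.09), the C8 gamma chain C8g (-3.60 ± 0.19), F9 (-4.26 ± 0.40), the C3b-cleaving protease Cfi (-5.00 ± 0.25) and Masp1 (-5.30 ± 0.09). Over the other 3 groups the Alb difference was -6.93 and the median of the liver-made genes -6.22, with 27 lower and F7 higher at 0.78 ± 0.07. The macrophage-made genes were then higher for 5 of 6 (median 0.51, beside 0.33 for all genes), and 0.02 for Cfp was not called. In that comparison 40 of 42 were called, against 69.8% of all genes (44.7% higher, 25.1% lower). With library totals alone 14 were higher and 27 lower, and over all genes 20756 and 1862 in place of 11960 and 6708. F5 was lower in WAT there at -0.32 ± 0.08, but 0.78 with library totals alone, where the median of all genes moved by 1.10.

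In both tissues the fl/fl libraries on vehicle stood apart from the other 6. In WAT all 6 macrophage-made genes, 6 mixed and 4 liver-made genes were lower in each of the other 6 libraries than in both of these, where 17.2% of all genes were, and 18 liver-made genes were higher, where 25.7% of all were. In liver 18 liver-made, 6 mixed and 4 macrophage-made genes lay above (10.5% of all genes) and 2 liver-made and 1 macrophage-made below (10.7% of all). Both comparisons that follow, NOX_6_18 against vehicle in fl/fl and CKO against fl/fl on vehicle, share the same 2 fl/fl vehicle libraries, so their values are given side by side and likeness between them is no second observation. In WAT the antagonist comparison called 28 of 38 genes fitted, 14 higher and 14 lower, where 37.8% of all genes were called (24.6% higher, 13.2% lower). The genotype comparison called 26, 12 higher and 14 lower, against 36.8% of all (24.4% higher, 12.4% lower). Macrophage-made and mixed genes that were called were all lower, while liver-made genes went both ways. The summed level of the liver-made genes in WAT was lower, at 29.1 to 30.2 CPM per kilobase in fl/fl on vehicle and 22.4 to 24.8 over the other 6 libraries. The sums of macrophage-made and mixed genes were lower there as well. With the antagonist all 6 macrophage-made genes fell (median -0.45), as did 6 of 8 mixed genes (median -0.43). Of 24 liver-made genes fitted, 14 rose and 2 fell (median 2.32), beside a median of 0.12 over all genes. In part the filter fixed this in both comparisons. C8b, F2, F11 and Plg, at 0 counts in fl/fl on vehicle, were fitted only through the other WAT libraries. They could only rise. Fgg, Fgb, Kng1 and Cpb2 had at most 8 counts per fl/fl vehicle library, and Proc had 4 and 20. They too were fitted only through the other WAT libraries, with little room to fall. The liver-made counts and medians therefore lean upward and do not measure a difference between the classes. With limma-voom 9 liver-made genes in place of 14 were called higher, F2, Plg, Serpinc1, Serpinf2 and Cpb2 losing their calls (adjusted p = 0.0593 for F2 to 0.139 for Cpb2). In CKO edgeR called 5 of 6 macrophage-made and 6 of 8 mixed genes lower (medians -0.35 and -0.43). It called 12 of 24 liver-made genes higher and 3 lower (median 2.10), where limma-voom called 10 higher. The 4 liver-made genes that were not fitted in WAT (Mbl1, Mbl2, Masp2 and F13b) had at most 13 counts in any WAT library.

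C1q, which recognises antibody on a surface, fell in all of its chains. C1qa stood at 979 and 880.1 CPM in vehicle-treated fl/fl, at 683 and 711 with NOX_6_18, at 782 and 700.5 in CKO on vehicle and at 672 and 689 in CKO with NOX_6_18. C1qb was at 1067 and 929.6, 672 and 662, 734 and 675, and 660.1 and 682 CPM in the same order. C1qc was at 851 and 738 in fl/fl on vehicle and 562 to 642 over the other 6 libraries. In each of the 3 the vehicle-treated fl/fl libraries were the highest of the 8, with no overlap. The log2 fold changes with NOX_6_18 were -0.42 ± 0.07 (SE) for C1qa, -0.58 ± 0.07 for C1qb and -0.48 ± 0.07 for C1qc (edgeR adjusted p = 0.00231, 0.00041 and 0.0013). C1s1, the protease that C1r activates, was at 781 and 749 against 509 to 532 CPM and fell by 0.55 in both comparisons; its reads share exon sequence with an overlapping gene model and with the near copy C1s2.

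Of the genes around C3, those encoding C3, C4b and factor B fell and C2 was not called. C3 stood at 3764 and 4353 CPM in vehicle-treated fl/fl and at 2871 to 3299 over the other 6 libraries, a log2 fold change of -0.35 ± 0.07 with the antagonist (adjusted p = 0.00467), a call lost with library totals alone (adjusted p = 0.0767). C4b, with the near copy C4a, was at 1163 and 1309 against 841 to 932, -0.45 ± 0.06. Factor B (Cfb) was at 229 and 232 against 169.5 to 176, -0.41 ± 0.06. C2, the partner of C4 in the same convertase, was at 113 and 118 and 112 to 124 with overlapping groups, and was not called (0.08 ± 0.06, adjusted p = 0.329). C2 and Cfb are neighbours that share reads with overlapping models.

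Most regulators and receptors fell as well. Serping1, the C1 inhibitor that also restrains kallikrein, fell from 1134 and 991 to 751 and 764 CPM, -0.49 ± 0.07. Properdin, which steadies the alternative convertase, was at 298 and 266 against 227 and 243 CPM (-0.26 ± 0.08, adjusted p = 0.0256) and was not called in CKO (adjusted p = 0.0848); its call was lost without either fl/fl NOX_6_18 library (adjusted p = 0.163 and 0.0656) or the first fl/fl vehicle library (0.112). C3ar1 was lower by the most of the macrophage-made genes, at 302 and 279.8 CPM in vehicle-treated fl/fl and 173 to 188 over the other 6, -0.73 ± 0.06 with the antagonist and -0.70 ± 0.06 in CKO. C5ar1 went from 367 and 314 to 276 and 267 CPM, -0.33 ± 0.08, a call lost without the second fl/fl NOX_6_18 library (adjusted p = 0.0854). In CKO the C5ar1 call was lost without the first fl/fl vehicle library or either CKO vehicle library (adjusted p = 0.0726 to 0.136), and that of C1qa without the second CKO vehicle library (0.0547). Pros1, the protein S gene that macrophages also express, stood at 369 and 360.4 against 239 to 252 CPM, -0.60 ± 0.05. Neither F10 (0.01 ± 0.11) nor the liver-made regulator Cfi (0.63 ± 0.33) was called.

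**Figure D2:**
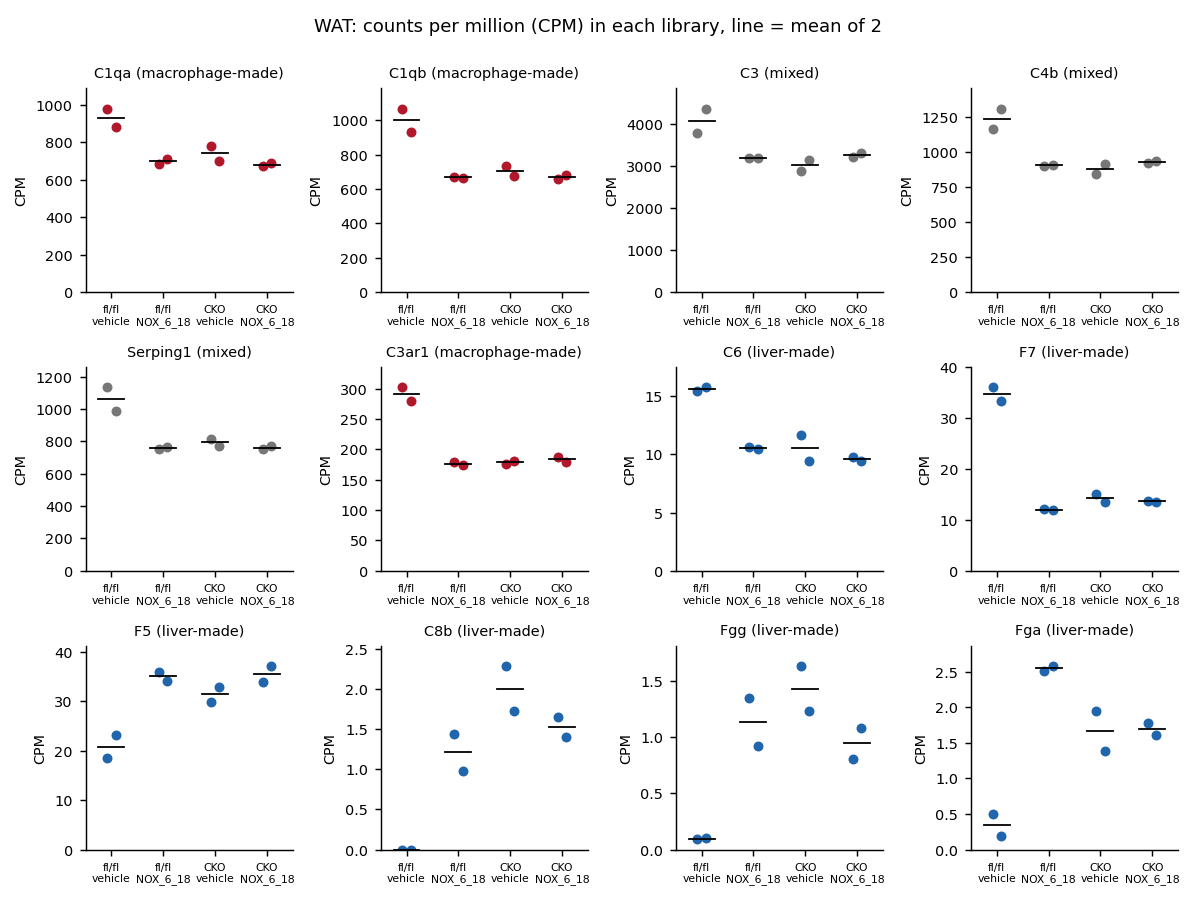
CPM of 12 genes in each WAT library, by group; points are libraries and black lines the mean of 2. Macrophage-made and mixed genes are highest in fl/fl on vehicle, C6 and F7 share that shape, and F5, C8b, Fgg and Fga are lowest there.

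These falls came with falls in markers of several cell types. The summed level of 14 macrophage markers was 11337 to 12092 CPM in vehicle-treated fl/fl and 7738 to 8045 over the other 6 WAT libraries; 11 of 14 were called lower with the antagonist and 2 higher. The sum of 8 fibroblast markers went from 21658 to 22135 down to 11452 to 11840 CPM, with 7 of 8 lower, and all 6 endothelial markers were lower. The sum of 9 adipocyte markers went from 2276 to 2489 down to 1532 to 1709.6 CPM, with 3 of 9 lower and 3 higher. In the other direction, 6 male germ cell markers summed to 18.9 to 23.1 CPM in vehicle-treated fl/fl and 716 to 790.0 in the other 6 libraries, and 6 of 8 neutrophil markers rose. The sum of 7 Kupffer cell markers went from 766 to 827 up to 828 to 885 CPM, with 2 of 7 lower and 1 higher with the antagonist. None of these lists was at 0 in either set. Their part in the changes of the complement and coagulation genes was not tested.

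Of the 14 liver-made genes that rose in WAT with the antagonist, 13 did so from under 1 CPM, and F5, described further on, was the exception. The fibrinogen chains are an example: Fga stood at 0.498 and 0.197 CPM in vehicle-treated fl/fl, 2.51 and 2.58 with NOX_6_18, 1.95 and 1.38 in CKO and 1.78 and 1.61 in CKO with NOX_6_18. Fgg stood at 0.0906 and 0.0984 and then 1.35 and 0.916, 1.63 and 1.23, and 0.807 and 1.08 CPM. In fl/fl on vehicle these are 4 and 5 counts per library for Fgg and 10 to 22 for Fga, against 48 to 155 in the other libraries. Fga rose by 2.88 ± 0.45 (adjusted p = 0.00134), Fgg by 3.55 ± 0.50 and Fgb by 3.69 ± 0.89. The complement C8 beta chain C8b had 0 counts in fl/fl on vehicle and 0.982 to 2.29 CPM elsewhere, at least 38.3-fold higher with the antagonist and at least 63.5-fold in CKO. For F11, Plg and F2, also without counts in fl/fl on vehicle, the bounds were at least 20.0-fold, 14.1-fold and 8.04-fold with the antagonist, and 11.5-fold, 16.7-fold and 18.6-fold in CKO.

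The contact-system proteins prekallikrein (Klkb1) and kininogen (Kng1) rose too, Klkb1 from 0.43 and 0.256 to 2.18 and 1.6 CPM (2.46 ± 0.38) and Kng1 from 0 and 0.157 to 1.03 and 0.866 CPM (3.50 ± 0.89). The anticoagulant protease protein C (Proc) went from 0.0906 and 0.393 to 1.14 and 1.1 CPM, and the plasmin inhibitor Serpinf2 from 0.906 and 0.59 to 1.42 and 2.61. Antithrombin (Serpinc1) and the fibrinolysis inhibitor Cpb2 were called with NOX_6_18 only, at adjusted p = 0.0345 and 0.0466; that the 2 comparisons differ was not tested. Calls at these levels rest on few reads. With NOX_6_18 those of Serpinf2, Serpinc1 and Cpb2 were lost without either fl/fl vehicle library or without 1 of the 2 NOX_6_18 libraries (the second for Serpinf2 and Cpb2, the first for Serpinc1), with adjusted p up to 0.255 for Serpinf2, 0.28 for Serpinc1 and 0.286 for Cpb2. Those of Kng1 and Plg were lost without the first NOX_6_18 library (0.0591 and 0.0582) and that of Proc without either (adjusted p up to 0.0638). In CKO those of Fgb, Kng1, Plg, Proc and Serpinf2 were each lost without at least 1 of the 2 CKO vehicle libraries, and Proc and Serpinf2 also without a fl/fl vehicle library, with adjusted p from 0.0508 to 0.232. C8a, C8g, C9, Cfi, F9, F12 and Serpind1 were not called in either comparison. Kng1 and Klkb1 share sequence or exons with other models, as do Plg, Fgg, F5 and Serpinc1.

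Alb moved beside them, from 5.5 and 4.94 to 28.2 and 33.4 CPM with the antagonist and 30.7 and 28.9 in CKO, 2.56 ± 0.13 on the log2 scale. Of the 18 hepatocyte markers 10 were higher and 1 lower in each comparison, with medians of 1.40 and 1.74. Hpx, the heme carrier, went from 0.272 and 0.197 to 1.51 and 2.23 CPM. The summed level of the list did not follow, at 878 to 939 CPM in vehicle-treated fl/fl and 743 to 784 in the other 6, and Trf, which other tissues express too, held most of it at 843 and 901 CPM. What part hepatocyte RNA has in the rise of the liver-made genes was not tested.

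The liver-made genes with the highest levels in WAT went their own ways. F7 was 36.1 and 33.4 CPM in vehicle-treated fl/fl, 12.1 and 11.9 with NOX_6_18, 15.0 and 13.4 in CKO and 13.7 and 13.6 in CKO with NOX_6_18, without overlap. Its log2 fold change was -1.53 ± 0.11 with the antagonist (adjusted p = 1.32e-05) and -1.29 ± 0.11 in CKO, the largest fall among the genes called. F10, next to it on the chromosome (chr8:13026034-13035809 and chr8:13037308-13056676), was not called. C6 fell from 15.4 and 15.8 to 10.6 and 10.5 CPM (-0.57 ± 0.14), while F5 rose from 18.5 and 23.1 to 36.0 and 34.1 CPM (0.75 ± 0.12, adjusted p = 0.00202). Masp1 stood at 11.2 and 10.8 against 7.45 to 8.82 CPM and was called in CKO alone (adjusted p = 0.0562 and 0.0216). The C6 calls were lost without either fl/fl NOX_6_18 library (adjusted p = 0.0645 and 0.0774) or, in CKO, without the second CKO vehicle library (0.0868), and the Masp1 call without the first fl/fl vehicle library or either CKO vehicle library (0.0633 to 0.111).

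No gene called in WAT changed direction with library totals alone, which moved the median of all genes by 0.17, but the counts shifted: 16 genes were then higher and 10 lower with the antagonist, among them 4 of 6 macrophage-made genes lower, and 13 higher and 9 lower in CKO, with 2 of 6. Over all genes the split under that scaling was 7498 higher and 1582 lower, in place of 6373 and 3411, and 7360 and 1455 in CKO in place of 6313 and 3216. The median of the macrophage-made genes was then -0.28 with the antagonist, beside 0.29 for all genes.

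In liver nearly all calls were rises. NOX_6_18 in fl/fl called 17 of 42 genes, 16 higher and 1 lower, where 5.52% of all genes were called (3.78% higher, 1.74% lower). CKO on vehicle called 19, 18 higher and 1 lower, against 5.8% of all (3.96% and 1.83%). Liver-made genes made up 13 and 14 of these calls, all higher, with medians of 0.51 and 0.55 over the 28, beside -0.01 for all genes in CKO and a value closer to 0 with the antagonist. Of the mixed genes 3 rose in each (Pros1, F10 and C4b). Among macrophage-made genes C3ar1 fell in both and C5ar1 rose in CKO; the C1q genes and Cfp were not called.

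The fibrinogen chains were the clearest. Fga stood at 58.1 and 65.8 CPM in vehicle-treated fl/fl, 108 and 115 with NOX_6_18, 120.0 and 117 in CKO and 113 and 108 in CKO with NOX_6_18. For Fgb the values were 61.3 and 56.9, 124 and 126, 120.2 and 126, and 125 and 121, and for Fgg 52.1 and 52.8, 116 and 113, 113 and 112, and 110.1 and 113 CPM. In all 3 both fl/fl vehicle libraries were the lowest, and the other 6 did not overlap with them. The rises with the antagonist were 0.85 ± 0.07 (SE), 1.08 ± 0.06 and 1.13 ± 0.05 on the log2 scale (edgeR adjusted p = 0.000292, 2.9e-05 and 1.4e-05), and 0.94 ± 0.07, 1.06 ± 0.06 and 1.10 ± 0.05 in CKO.

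Of the 5 terminal pathway genes 4 rose. C8b, with 3.18 and 3.18 CPM in fl/fl given vehicle and 8.79 to 12.1 elsewhere, rose by 1.89 ± 0.17 with the antagonist, the largest change among the genes called in liver. C8a was 9.05 and 13.6 against 23.3 to 31.1 (1.46 ± 0.18), and C9, the pore-forming component, 10.1 and 10.5 against 23.2 to 27.8 (1.27 ± 0.10). C6 rose from 53.6 and 53.3 to 78.0 and 76.6 CPM, 0.53 ± 0.05. The C8 gamma chain C8g overlapped between groups and was not called (adjusted p = 0.515). Among the proteases of clotting, F11 rose from 1.15 and 1.54 to 3.43 and 2.93 CPM (1.25 ± 0.23), F2 from 45.2 and 47.3 to 65.4 and 66.7 (0.51 ± 0.08) and F10 to 17.7 and 19.5 (0.64 ± 0.10). The F11 call was lost without the first fl/fl vehicle library or either NOX_6_18 library (adjusted p = 0.0527 to 0.115), F2 without the first fl/fl vehicle library (0.0527) and F10 without the second NOX_6_18 library (0.0539). In CKO F11 and F10 were lost without the first fl/fl vehicle or first CKO vehicle library, with adjusted p from 0.0521 to 0.0774.

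Kng1 and Klkb1 rose as in WAT, Kng1 from 37.8 and 39.8 to 84.0 and 73.4 CPM (1.02 ± 0.08) and Klkb1 from 6.89 and 8.01 to 14.1 and 12.1 (0.81 ± 0.14). In fibrinolysis Plg went from 48.2 and 52.1 to 84.5 and 75.9 CPM (0.68 ± 0.07) and Serpinf2 from 18.4 and 18.7 to 32.7 and 32.5 (0.82 ± 0.09). Serpinc1 was called in CKO (0.47 ± 0.08, adjusted p = 0.0106) and not with the antagonist (adjusted p = 0.0586). The Klkb1 call was lost without the first fl/fl vehicle or first NOX_6_18 library (0.0977 and 0.0914), and that of Serpinc1 without the second fl/fl vehicle or first CKO vehicle library (0.076 and 0.0727). The liver-made genes called in neither comparison were Mbl1, Mbl2, Masp1, Masp2, C8g, Cfi, F5, F7, F9, F12, F13b, Serpind1, Proc and Cpb2. Proc and F12 lay higher in fl/fl mice on NOX_6_18 without passing the test (0.50 ± 0.12 and 0.43 ± 0.13, adjusted p = 0.0541 and 0.101), and F5, at 23.5 and 31.1 CPM against 19.3 to 21.5, lay lower without passing the test (-0.44 ± 0.13, adjusted p = 0.11).

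The 4 lectin pathway genes had no call in liver. Mbl1, a mannose-binding lectin, stood at 2.45 and 3.35 CPM in vehicle-treated fl/fl against 4.41 to 5.42 in the other 6 libraries (0.75 ± 0.21, adjusted p = 0.0838). Its paralogue Mbl2 was at 9.63 and 8.05 against 8.24 to 9.28 CPM, with overlap (0.03 ± 0.13). Masp1, at 204 and 208 CPM in fl/fl on vehicle, lay at 183 to 199 in the others, lower in each but by little (-0.10 ± 0.05, adjusted p = 0.323). Masp2, which cleaves C4 and C2 and shares exon sequence with Tardbp, was at 3.06 and 5.27 against 3.3 to 4.59 CPM. F7, the gene with the largest fall in WAT, was at 3.2 and 3.4 CPM on vehicle and 2.98 and 3.62 on NOX_6_18 in liver of fl/fl mice, with overlap, and the tissues differed in their response by -1.53 ± 0.18 (adjusted p = 0.000165). C3 was at 779 and 767 CPM on vehicle and 809 and 783 on NOX_6_18 (0.04 ± 0.03, adjusted p = 0.586), against its fall in WAT, a difference of -0.39 ± 0.09 (adjusted p = 0.0119) whose call was lost with library totals alone (adjusted p = 0.135) and in a fit of only the groups compared (0.0593).

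**Figure D3:**
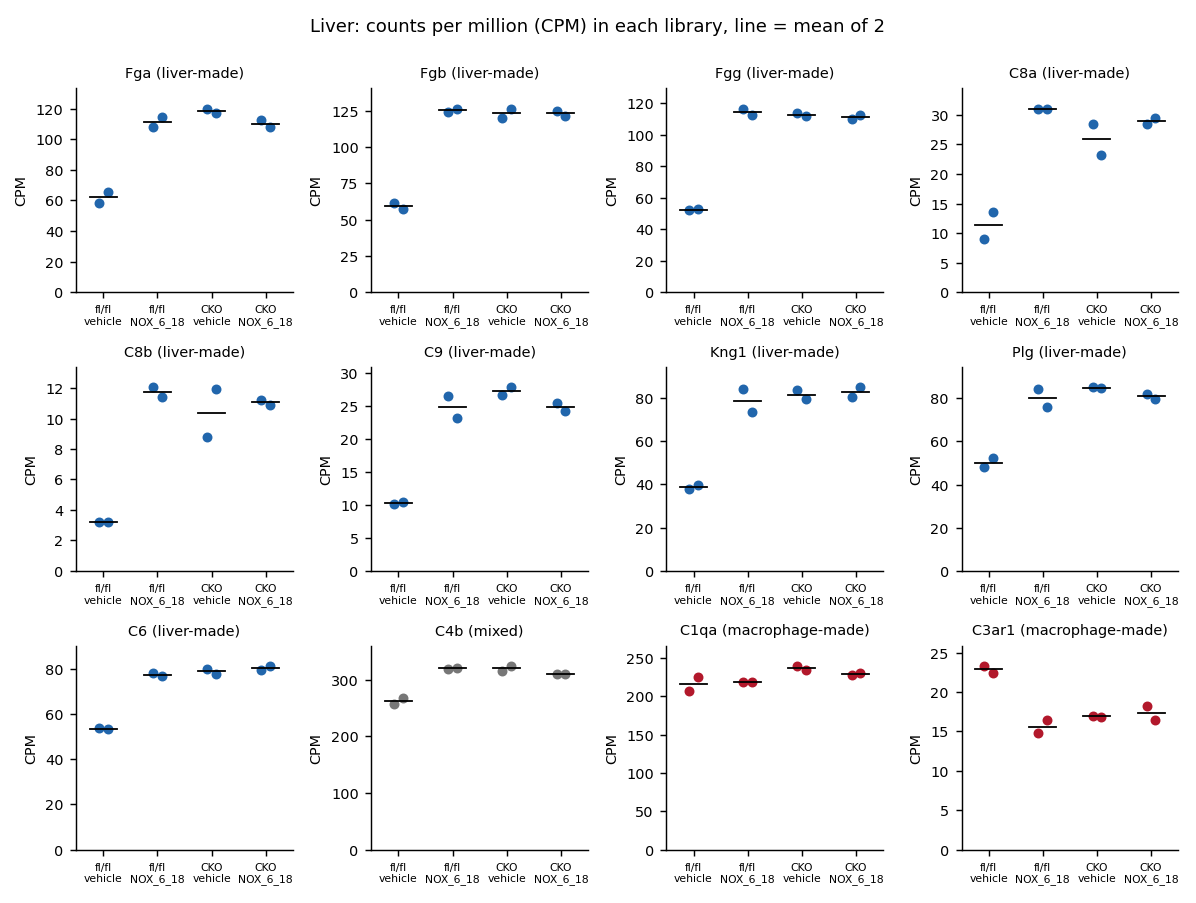
CPM of 12 genes in each liver library, by group; points are libraries and black lines the mean of 2. The 9 liver-made genes and C4b are lowest in fl/fl on vehicle, C1qa overlaps between the groups, and C3ar1 is highest in fl/fl on vehicle.

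Of the macrophage-made genes of liver, 4 of 6 passed no test. C1qa was 207 and 225 CPM in vehicle-treated fl/fl and 218 to 239.6 over the other 6 libraries, and its log2 change with the antagonist was 0.02 ± 0.05 (adjusted p = 0.929). C3ar1 was 23.3 and 22.5 against 14.8 to 18.3 CPM, -0.55 ± 0.10 with the antagonist and -0.44 ± 0.10 in CKO, but each call was lost without any 1 of the 4 libraries compared, with adjusted p up to 0.114 and 0.196. C5ar1 rose in CKO from 7.59 and 6 to 13.3 and 10.7 CPM (0.82 ± 0.17, adjusted p = 0.0279); that call was lost without the second fl/fl vehicle or the first CKO vehicle library (0.153 and 0.163). Pros1 rose from 223 and 229 to 273 and 285 CPM (0.30 ± 0.05) and C4b from 256 and 268 to 319 and 320.1 (0.29 ± 0.04). The Pros1 call was lost without the first fl/fl vehicle library (0.0559) and, in CKO, without that library or the second CKO vehicle library (0.0737 and 0.0655).

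Cell markers in liver moved in part with these genes. The 18 hepatocyte markers summed to 3769 to 3965 CPM in vehicle-treated fl/fl and 4514 to 4698 in the other 6 libraries, with 9 higher and 3 lower with the antagonist and a median of 0.50, beside 0.51 for the liver-made genes. Within the list Apoa1 rose from 169 and 168 to 392 and 372 CPM, while Alb was 1933 and 2024 and then 1753 and 1777. Kupffer cell markers summed to 1368 to 1410 and 1693 to 1747 CPM, and neutrophil markers to 15.8 to 19.0 and 99.2 to 110.4, with 7 of 8 higher. Platelet markers summed to 11.5 to 14.6 and 20.2 to 23.9 CPM, with 2 of 5 higher. Macrophage markers summed to 3011 to 3023 and 3164 to 3205 CPM, endothelial markers to 3052 to 3106 and 3203 to 3291, and fibroblast markers to 261 to 267 and 292 to 314. The part of these in the changes was not tested.

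Within CKO mice no gene of the 42 was called with NOX_6_18, nor between the genotypes among mice on NOX_6_18. In WAT the counts were 0 of 38 in both, against 0.0155% of all genes for the antagonist in CKO (0.00387% higher, 0.0116% lower) and 0.0348% for the genotype on NOX_6_18 (0.0155% higher, 0.0193% lower). In liver they were 0 of 42 in both, against 0.0359% of all genes each (0.0256% higher, 0.0102% lower). DESeq2 and limma-voom also called 0 in each of these 4 comparisons, and 2 genes in WAT with the antagonist in CKO, and 0 in the other 3, had an unadjusted p under 0.05. The class medians lay between -0.11 and 0.05 in these 4 comparisons. The self-test recovered 65 of 67 simulated 2-fold changes in WAT and 64 of 67 in liver, in the antagonist comparison of fl/fl mice. At 1.5-fold it recovered 31 and 32 of 67, so smaller changes could be missed. All its genes had the same fixed dispersion, and those changed were drawn only from genes above a minimum mean level. The rates therefore do not cover liver-made genes with few counts in WAT. With the antagonist in CKO, the SE in WAT was 0.999 for Plg and 0.72 for Kng1, against 0.07 for C1qa.

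The interaction tests whether the antagonist acts differently in the 2 genotypes. It rests on the same 2 fl/fl vehicle libraries of each tissue, so it is no observation independent of the response in fl/fl, and every member it called had the sign opposite to that of its response in fl/fl. In WAT it was called for 19 of 38 genes, 10 higher and 9 lower, against 25.3% of all genes (6.71% higher, 18.6% lower), and in liver for 12 of 42, all lower, against 2.45% (0.584% higher, 1.87% lower). The liver count fell to 7 without the first CKO NOX_6_18 library and to 7 with all 16 libraries in 1 fit. With library totals alone the WAT split was 6 higher and 11 lower, and over all genes 789 and 5517 in place of 1737 and 4810. In WAT the higher ones were 3 macrophage-made genes (C1qb, C1qc and C3ar1), 6 mixed genes and F7, and the lower ones were liver-made, such as Fgg at -4.15 ± 0.64. In liver 11 were liver-made and the other was C4b (-0.33 ± 0.06, adjusted p = 0.0252), whose call was lost without any 1 of 7 libraries, all but the second fl/fl vehicle library (adjusted p = 0.0579 to 0.0938). The calls of C1qc, C3, Serping1, F2, F5, Kng1 and Plg in WAT, and of C6, C8a, F2 and Serpinf2 in liver, were also lost without at least 1 of the 8 libraries of the tissue, with adjusted p up to 0.153 in WAT (F5, without the first CKO NOX_6_18 library) and 0.128 in liver (F2, without the first fl/fl vehicle library). The fibrinogen chains had -0.95 ± 0.10, -1.08 ± 0.08 and -1.15 ± 0.07 there, the reverse of their rise in fl/fl.

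The response to the antagonist also differed between the tissues. It was called for 27 of 42 genes, 13 higher in WAT than in liver and 14 lower, against 14.7% of all genes (7.52% higher, 7.2% lower), and the genotype difference for 26, 11 higher and 15 lower, against 14.2% (7.44% higher, 6.75% lower). The higher ones include C8b, F2, F11 and Plg, with 0 counts in WAT of fl/fl on vehicle. They also include Fgg, Fgb and Kng1 and, with the antagonist, Serpind1 and Cpb2, with at most 8 counts per library there. In WAT these genes could hardly do other than rise, so the counts of higher genes lean upward. With library totals alone these splits were 14 and 11, and 11 and 10, while over all genes they went from 2011 higher and 1925 lower to 2499 and 975, and from 1991 and 1805 to 2416 and 915. Of the macrophage-made genes 5 of 6 and of the mixed genes 7 of 8 were lower in WAT than in liver in both. In CKO the differences of Cfp and F10 were each lost without any 1 of 6 libraries (the first fl/fl vehicle and second CKO vehicle library of WAT, and each of the 4 liver libraries compared), with adjusted p from 0.0582 to 0.141 for Cfp and 0.0585 to 0.102 for F10, and with library totals alone (0.333 and 0.149). With the antagonist that of Cfp was lost without the first fl/fl NOX_6_18 library of WAT. Those of Cpb2, F2, Proc and Serpind1 were also each lost in fits that left out a library, and that of Plg without any 1 of the libraries compared. In CKO this held for Plg, Proc, Masp1, Fga and Fgb in at least 1 such fit. With limma-voom the differences of Klkb1, Cpb2, Proc and Serpind1 were lost with the antagonist, and those of Fga, Proc and Masp1 in CKO. C3ar1 was the macrophage-made gene called lower in both tissues, with a difference of -0.17 ± 0.10 that was not called (adjusted p = 0.32). C4b, C6 and Pros1 were called in opposite directions in the 2 tissues, lower in WAT and higher in liver, with differences of -0.73 ± 0.08, -1.10 ± 0.12 and -0.90 ± 0.06 for the antagonist. In CKO C5ar1 joined them with -1.08 ± 0.18. Each is a member of a different arm: C4b of the classical pathway, C6 of the terminal pathway, Pros1 of the anticoagulant system and C5ar1 of anaphylatoxin sensing. As given above, the calls of C6 in WAT and Pros1 in liver were lost in some fits that left out a library. So were those of C5ar1 for CKO in both tissues.

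**Figure D4:**
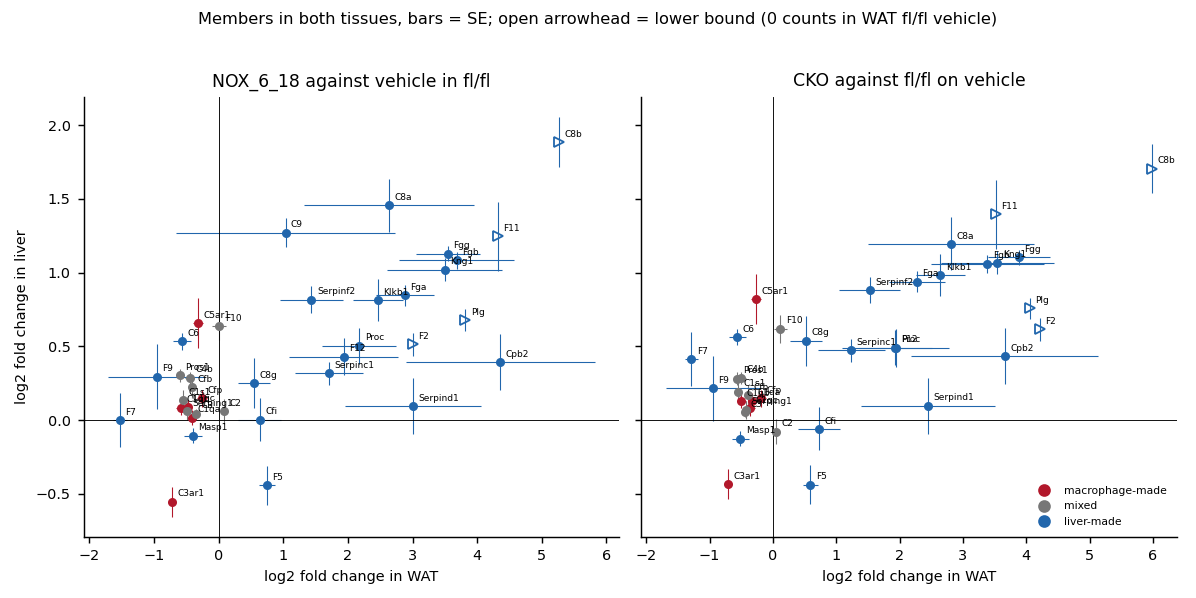
Log2 fold change in WAT (x axis) and liver (y axis) for each gene fitted in WAT, for NOX_6_18 in fl/fl (left) and CKO on vehicle (right); bars are SE, and open arrowheads are lower bounds for genes at 0 counts in WAT of fl/fl on vehicle. C9 is left out on the right, being at 0 counts in WAT of CKO on vehicle. Most macrophage-made and mixed genes lie left of 0 in WAT, and the liver-made genes called in both tissues lie at the upper right, except C6.

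Among 55 other genes of the 2 pathways, 8 rose and 20 fell with the antagonist in WAT of 54 fitted, where 24.6% of all genes rose and 13.2% fell. In CKO 8 rose and 22 fell, where 24.4% and 12.4% of all genes did. Of 6 other complement receptor genes, 3 fell with the antagonist and 4 in CKO, and none rose. Itgax, the alpha chain of complement receptor 4, went from 286 and 293 to 126 and 129 CPM (-1.18 ± 0.08), and its partner Itgb2 from 543 and 504 to 326 and 320.1 (-0.70 ± 0.06). Plau, the urokinase that activates plasminogen, fell from 367 and 332 to 194 and 197 (-0.84 ± 0.07), and the log2 change of C1ra, the C1r protease with the near copy C1rb, was -0.53 ± 0.06. The regulator C4bp rose from 28.4 and 26.5 to 74.7 and 66.3 CPM (1.36 ± 0.09), and Apoh, a plasma apolipoprotein, had 0 counts in fl/fl on vehicle and was at least 95.5-fold higher.

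In liver 11 of these other genes rose and 5 fell with the antagonist, where 3.78% of all genes rose and 1.74% fell, and 12 rose and 5 fell in CKO, where 3.96% and 1.83% did. Thrombomodulin (Thbd), which turns thrombin toward protein C, rose from 132 and 137 to 240.4 and 244 CPM (0.85 ± 0.05, adjusted p = 2.79e-05). Vtn, vitronectin, which blocks the terminal complex, rose from 57.0 and 63.4 to 117 and 125 CPM in liver (1.01 ± 0.08) and fell from 62.2 and 52.9 to 30.1 and 31.8 in WAT (-0.90 ± 0.11), a difference of -1.90 ± 0.13. Clusterin (Clu), another terminal inhibitor, went the other way, 0.58 ± 0.11 in WAT and -0.36 ± 0.04 in liver. C5 itself (Hc) rose by 0.71 ± 0.10 and C7 by 1.46 ± 0.18 in liver, alongside C6, C8a, C8b and C9.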

How the data were processed

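RNA-seq was deposited as 16 tables of read counts per Ensembl gene, 1 per library. The submitters' processing notes name HISAT, featureCounts 1.5.0, DESeq 1.8.3 and GRCm38 without saying how each was used, and per the labels a strand-specific kit was used. The deposited counts are whole numbers and were used as they stand, with no sample column left unused. GENCODE M21 gave symbols for 55240 of 55421 genes. CPM divide counts by the library total scaled by edgeR's TMM factors, within each tissue, and CPM per kilobase divide by the length of merged exons. With 3 counts as the least taken as detected, the floor was 0.0485 to 0.0679 CPM. A fold against a group at 0 counts is a bound from 3 counts over that group. Floors and bounds cover counting error only.

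Tests used edgeR 4.0.16 (R 4.3.3), its quasi-likelihood F test on genes kept by its expression filter, with the 8 libraries of a tissue in 1 fit (25871 genes in WAT, 19515 in liver) or all 16 for comparisons between tissues (26751 genes), and Benjamini-Hochberg adjustment over all genes fitted. A gene was called at an adjusted p under 0.05, and SE is the fold change divided by the root of F. A check on simulated counts with 200 changed genes came before. All its genes had the same fixed dispersion, and those changed were drawn from genes above a minimum mean level. Library totals alone, RLE factors, other filters, DESeq2 1.42.0, limma-voom (limma 3.58.1), a replicate block, a GC and length correction, other sets of libraries and leaving out each library were the alternatives.

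The members, their classes and the lists of other pathway genes and cell markers (9 lists) were chosen with earlier results of these data known. All 42 genes are accounted for, and those given values for each library are the ones called in a comparison or set beside them in a role. Replicate numbers in the labels are not said to pair libraries, and the deviations of libraries with the same number correlated at -0.027 to 0.025, so they were not treated as pairs. Genes that share exons with another model or have a near copy are named as such, since reads could be split between them. No genome sequence was used beyond the RefSeq upstream table.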

Additional observations from a re-analysis of the deposited data

Results flagged for a closer look

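The results below are differences between groups in the same contrast, each tested directly with edgeR's quasi-likelihood test. The response to NOX_6_18 differed between the genotypes for 19 of the 38 genes fitted in WAT, where 25.3% of all genes did, and 12 of 42 in liver, where 2.45% did. Between tissues, the response to NOX_6_18 in fl/fl mice differed for 27 of 42 genes, against 14.7% of all, and the difference between CKO and fl/fl on vehicle for 26, against 14.2%. Both tissue comparisons use the same 4 fl/fl vehicle libraries. Several liver-made genes, such as C8b, F2, F11 and Plg, had 0 counts in WAT of fl/fl on vehicle. Their WAT change could hardly be other than a rise, which adds to the WAT and tissue counts. As given above, several of the tissue differences were lost in fits that left out a library.

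Some genes were called lower in WAT and higher in liver, with a called difference between the tissues. For NOX_6_18 the difference in log2 fold change, WAT minus liver, was -0.73 for C4b, -1.10 for C6 and -0.90 for Pros1. For CKO on vehicle it was -0.78 for C4b, -1.11 for C6, -0.83 for Pros1 and -1.08 for C5ar1. Within a tissue, the calls of C6 in WAT and Pros1 in liver were lost in some fits that left out a library. So were those of C5ar1 for CKO in both tissues. In WAT, the summed markers of macrophages, fibroblasts, endothelial cells, adipocytes, hepatocytes and platelets were lower in the same libraries in which these genes were lower. Those of Kupffer cells, neutrophils and male germ cells were higher there. In liver the sums of all 9 marker lists were higher. Of the 18 hepatocyte markers there, 9 were called higher with the antagonist and 11 in CKO, with 3 lower in each. Their part in these differences was not tested.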

How the results depend on the processing

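Of 256 calls of single genes, 183 were the same under every alternative run. Over all alternatives 3951 values kept direction and call, 274 lost the call and 3 reversed, all 3 with library totals alone: F10 at 0.39 and Pros1 at 0.57 between WAT and liver in fl/fl on vehicle, and F5 at 0.78 over the other 3 groups, where that scaling moved the median of all genes. Among counts of genes called, asking also for a log2 change of 1 or more in size left 14 with the antagonist, 12 in CKO and 9 for the interaction in WAT, 7, 7 and 5 in liver, and 15 and 14 for the antagonist and CKO between tissues. A fit of only the groups compared gave 17 in WAT of CKO, and all 16 libraries in 1 fit gave 7 for the liver interaction. With only the groups compared, 21 liver-made genes were fitted in WAT. Of these 8 were higher and 2 lower with the antagonist, and 7 higher and 1 lower in CKO. Leaving out 1 library at a time gave 22 to 26 for the antagonist, 18 to 27 in CKO and 13 to 23 for the interaction in WAT, and 13 to 16, 14 to 17 and 7 to 10 in liver, the 7 without the first CKO NOX_6_18 library. It gave 42 in fl/fl on vehicle and 40 to 41 over the other 3 groups between tissues, and 23 to 25 and 20 to 25 for the responses between tissues. The 4 comparisons with 0 calls stayed at 0. Where leaving a library out left a group with 1, that library is assumed to vary like the others. With a replicate block the counts were 25, 25 and 18 in WAT and 17, 18 and 11 in liver (antagonist, CKO, interaction), 0 in the 4 comparisons without calls, and 42, 40, 26 and 23 between tissues. The numbers do not pair the libraries.

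With 2 libraries per group the self-test recovered 31 of 67 simulated 1.5-fold changes in WAT and 32 of 67 in liver. Its changed genes lay above a minimum mean level. Liver-made genes in WAT rest on few reads, such as 4 and 5 for Fgg in fl/fl on vehicle, and these rates do not cover such genes. limma-voom called 9 liver-made genes higher in WAT with the antagonist, in place of 14. For other changed calls the cause was not tested.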
